A study of Mus musculus with 10 samples.

Results

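The transcript levels of 10 genes that mark alveolar type 1 cells were described in mouse lung tumours that had lost, or kept, the glucose transporter Glut1. The genes were Ager, Aqp5, Pdpn, Clic5, Emp2, Gprc5a, Cav1, Hopx, Rtkn2 and Akap5. They were chosen by name as markers, with earlier results of these data known, each matching 1 row by symbol, out of 39017 genes in the count table. RNA sequencing had been carried out on 10 libraries from C57BL/6 males, 5 named KP and 5 named KPG1. In both groups the tumours were started by an adenovirus (Ad5SPC-Cre) that expresses Cre recombinase under the promoter of surfactant protein C, a gene of alveolar type 2 cells, and both carried the same engineered tumour-starting alleles. KPG1 animals were in addition homozygous for a floxed allele of Slc2a1, the gene for Glut1. KP controls were given as wild type for it in the sample descriptions and as heterozygous fl/wt in the genotype field, so that the presence of 1 floxed allele in some controls could not be settled. Tumours were collected by macrodissection at 18 weeks plus 6 days after tumour initiation, dissociated, and depleted of CD45-positive immune cells. Since Cre was driven in surfactant protein C-expressing cells, stromal and endothelial cells left in the CD45-negative fraction would keep intact Slc2a1. No source tied a library to a number of tumours or animals, and p-values measure the spread between these libraries. The sample numbers in the titles were 1, 4, 5, 9 and 10 for KPG1 and 6, 11, 12, 15 and 16 for KP. Only KP 5 (number 6) lay within the KPG1 range of numbers, so sample number and genotype largely coincide.

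Alveolar type 1 cells are the thin, flat epithelial cells across which gas is exchanged. They arise from alveolar type 2 cells, the surfactant-making cells targeted by the virus used here, through a transitional state rich in keratins, and the switch depends on Hippo pathway factors and on the lung lineage factor NKX2-1. The 10 markers cover different parts of the cell. Ager encodes RAGE, a receptor of the basal membrane, Aqp5 a water channel, Pdpn the surface glycoprotein podoplanin, Clic5 an intracellular chloride channel family protein, Emp2 a tetraspan membrane protein and Gprc5a an orphan receptor induced by retinoic acid. Cav1 forms caveolae and is abundant in endothelium too. Hopx is a homeodomain protein that does not bind DNA, and Akap5 is a scaffold for protein kinase A. In bulk libraries, fewer cells of a type and less RNA per cell cannot be told apart.

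Promoter sequences are shown for Ager, the member with the highest level per length, and for Clic5 and Emp2, a pair that was high together in 1 KP library. Each run is the 250 bases before the RefSeq start on the gene's own strand (build GRCm38.p6), at chr17:34597600-34597849 on the plus strand for Ager, chr17:44188322-44188571 on the plus strand for Clic5 and chr16:10313969-10314218 on the minus strand for Emp2. Capitals mark a GC box (GGGCGG on either strand), the letters bound by SP factors.
Ager: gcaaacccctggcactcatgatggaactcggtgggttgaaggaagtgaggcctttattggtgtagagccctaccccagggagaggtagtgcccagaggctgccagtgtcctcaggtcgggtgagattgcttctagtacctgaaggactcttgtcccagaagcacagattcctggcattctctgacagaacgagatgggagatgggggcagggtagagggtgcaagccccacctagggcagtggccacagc
Clic5: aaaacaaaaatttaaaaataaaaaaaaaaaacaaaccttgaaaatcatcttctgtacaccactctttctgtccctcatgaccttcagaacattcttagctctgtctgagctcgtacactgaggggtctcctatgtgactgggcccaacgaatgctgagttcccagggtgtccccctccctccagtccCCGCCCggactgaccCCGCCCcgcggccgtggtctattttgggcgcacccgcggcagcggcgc
Emp2: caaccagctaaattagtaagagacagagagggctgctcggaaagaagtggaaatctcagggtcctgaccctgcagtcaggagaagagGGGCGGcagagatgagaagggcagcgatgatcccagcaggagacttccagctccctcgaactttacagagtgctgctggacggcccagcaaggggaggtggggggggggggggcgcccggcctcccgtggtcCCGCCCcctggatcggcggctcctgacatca
Clic5 and Emp2 each held 2 GC boxes and Ager none. The first letters of the matches lay at -63 and -48 from the start in Clic5, and at -163 and -31 in Emp2. Of the 10 markers, 8 had a window in the RefSeq table (10 windows in all), and Rtkn2 and Gprc5a had no entry. GC boxes were also found before Aqp5, Akap5 and Cav1, while 32.7% of all 32851 windows of this length held one. The core letters of TEAD sites, GGAATG on either strand, were in none of the 10 windows and in 12.6% of all windows. A core of NKX2-1 sites, CTCAAG on either strand, was found once, at -112 before Hopx, and in 13.3% of all windows. Matches of these motifs can share end letters, such as the GG of GGGCGG and GGAATG, and a match or its absence describes these letters alone.

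All 10 markers were detected in every library, with 336 to 96451 counts per gene and library, at totals of 32427029 to 49534284 counts. Slc2a1 was checked first. On the log2 scale of CPM (read counts scaled to a common library size) after TMM scaling, used for all single-gene values here, the 5 KP libraries read 6.30, 6.99, 6.95, 6.76 and 6.16 and the 5 KPG1 libraries 5.57, 6.06, 5.35, 5.68 and 5.47. The groups did not overlap, with KPG1 lower in all 5 libraries (log2 fold change -1.01, SE 0.20, adjusted p = 0.0675 in limma over 16216 genes; exact two-sided permutation p = 0.00794, the smallest that 5 against 5 allows). Without KP 5 the limma adjusted p of Slc2a1 was 0.0220, and without each other library in turn it was 0.0993 to 0.230. Counts were taken over the whole gene, and how much came from cells without recombination was not tested. Sftpc, the type 2 gene whose promoter drove Cre, ran from 5874 to 39652 CPM by library total, and Ptprc, which encodes CD45, from 4.58 to 11.6 CPM. Among the 10 libraries, KP 1 and KP 5 stood at opposite ends for several markers, and KP 5 had the lowest summed endothelial, fibroblast and club cell gene levels.

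None of the 10 markers differed between KPG1 and KP tumours at an adjusted p under 0.05, against 28 of 16216 genes (0.173%) over the whole table. Adjusted p ranged from 0.432 to 0.984 in limma, and edgeR and DESeq2 likewise passed 0 markers. At an unadjusted p under 0.05, limma gave 2 markers, edgeR 2 and DESeq2 3. Of all 16216 genes they gave 1877, 2022 and 2274 in either direction. Both of the limma markers, Emp2 and Gprc5a, had lower values in KPG1, as had 6.31% of all genes at that unadjusted threshold. Fitted values were higher in KPG1 for 6 markers (Ager, Aqp5, Pdpn, Cav1, Rtkn2 and Akap5) and lower for 4 (Hopx, Clic5, Emp2 and Gprc5a), while 52.7% of all genes were higher. The median log2 fold change of the markers was 0.15, beside 0.02 for all genes. The 2 groups overlapped for every marker, and 2.81% of all genes had groups that did not overlap. The plot of marker levels by library shows these values.

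**Figure D1:**
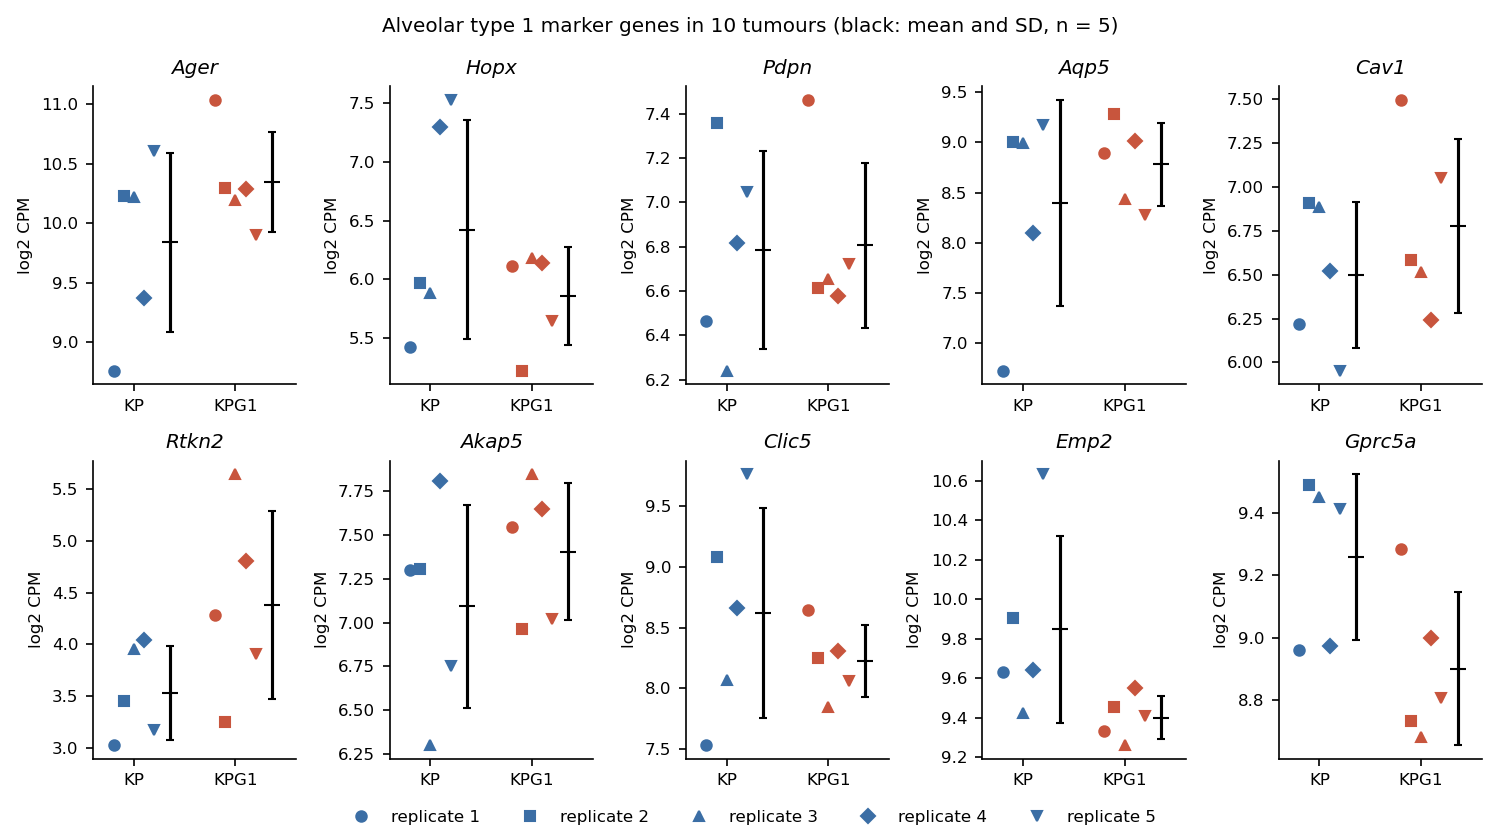
Level of each of the 10 alveolar type 1 markers (log2 CPM after TMM scaling, y axis) in 5 KP and 5 KPG1 libraries, each point 1 library with its replicate number as the symbol, and black bars the mean and SD. The groups overlap for all 10 markers, and KP replicate 1 is the lowest KP point for 6 of them.

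Among the membrane proteins, Ager had the highest level per length of the 10 markers. It read 8.76, 10.23, 10.22, 9.37 and 10.61 log2 CPM in KP 1 to KP 5, and 11.04, 10.30, 10.20, 10.29 and 9.90 in KPG1 1 to KPG1 5. KP 1 and KP 4 were the lowest of all 10 libraries and KPG1 1 the highest, and the other libraries lay between. The log2 fold change of KPG1 against KP was 0.50 (SE 0.34, adjusted p = 0.601), with a 95% interval from 0.846-fold to 2.37-fold. Without KP 1 it was 0.23 and without KPG1 1 it was 0.32. Aqp5 had KP values of 6.73, 9.01, 8.99, 8.10 and 9.18 log2 CPM and KPG1 values of 8.90, 9.28, 8.43, 9.01 and 8.27. Here KP 1 lay well under the other 9 libraries, which ran from 8.10 to 9.28. The log2 fold change was 0.38 (SE 0.43, adjusted p = 0.775), and it was -0.04 without KP 1, 0.25 without KPG1 2 and 0.06 without both KP 1 and KP 5. Pdpn, which lymphatic endothelium and some fibroblasts also make, had a log2 fold change of 0.02 (SE 0.23), with 6.24 to 7.36 log2 CPM in KP and 6.58 to 7.46 in KPG1. Its fold interval of 0.71 to 1.45 was among the narrower ones, and KPG1 1 stood above the other 4 KPG1 libraries. Without KPG1 1 the log2 fold change of Pdpn was -0.16, without KP 3 -0.13 and without KP 1 -0.06, and DESeq2 gave -0.0010. The direction of Pdpn thus changed with the library left out and the tool.

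Clic5 read 7.53, 9.08, 8.07, 8.66 and 9.76 log2 CPM in the KP libraries and 8.64, 8.24, 7.85, 8.31 and 8.06 in the KPG1 libraries. The KPG1 values lay inside the KP range, which ran from the lowest level in KP 1 to the highest in KP 5 (log2 fold change -0.40, SE 0.35, adjusted p = 0.699). It was -0.13 without KP 5 and -0.67 without KP 1. For Emp2 the KP values were 9.63, 9.91, 9.42, 9.64 and 10.63, and the KPG1 values 9.34, 9.45, 9.26, 9.55 and 9.41. KP 5 was the highest of all 10 libraries, and the KPG1 libraries kept within a range of 0.289 log2 units. The log2 fold change was -0.44 (SE 0.20, unadjusted p = 0.0498, adjusted p = 0.432 in limma), and -0.26 without KP 5. Gprc5a gave 8.96, 9.49, 9.45, 8.97 and 9.41 log2 CPM in KP and 9.28, 8.73, 8.68, 9.0 and 8.81 in KPG1. KP 2, KP 3 and KP 5 were above every KPG1 library, while KP 1 and KP 4 lay among them (log2 fold change -0.36, SE 0.16, unadjusted p = 0.0490, adjusted p = 0.432 in limma). Leaving out any 1 of KP 2, KP 5, KPG1 3, KPG1 4 or KPG1 5 left 0 markers with an unadjusted p under 0.05 in limma.

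Cav1 ran from 5.95 to 6.91 log2 CPM in KP, lowest in KP 5, and from 6.24 to 7.50 in KPG1, highest in KPG1 1. Its log2 fold change was 0.28 (SE 0.26, adjusted p = 0.712), and it was 0.13 without KP 5, 0.09 without KPG1 1 and -0.0057 with KP 1 and KP 5 both left out. The homeodomain gene Hopx read 5.42, 5.97, 5.89, 7.30 and 7.53 log2 CPM in KP and 6.11, 5.22, 6.18, 6.14 and 5.64 in KPG1. KP 4 and KP 5 were above the other 8 libraries, which spanned 5.22 to 6.18. The log2 fold change was -0.56 (SE 0.39, adjusted p = 0.618), and the 95% interval reached from 0.372-fold to 1.23-fold. Without KP 5 the value was -0.30, and without KP 4 it was -0.35. An exon of Hopx overlaps one of Hopxos on the opposite strand, and because the strand setting of the counting is not given in the sources used here, reads of the pair cannot be told apart. Rtkn2, the least abundant marker, had KP values of 3.03, 3.46, 3.96, 4.04 and 3.17 log2 CPM and KPG1 values of 4.28, 3.25, 5.64, 4.81 and 3.91. KPG1 3 was the highest library and KP 1 the lowest, with 2200 and 336 counts. Its log2 fold change was 0.86 (SE 0.42, adjusted p = 0.462), with an interval from 0.958-fold to 3.45-fold, and 0.53 without KPG1 3. An exon of the antisense gene Gm16212 overlaps Rtkn2, with at most 1 count in any library. Akap5 lay between 6.30 and 7.81 log2 CPM in KP and between 6.96 and 7.85 in KPG1 (log2 fold change 0.31, SE 0.28, adjusted p = 0.700), and its log2 fold change was 0.10 without KP 3, 0.49 without KP 4 and 0.21 without KPG1 3.

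**Figure D2:**
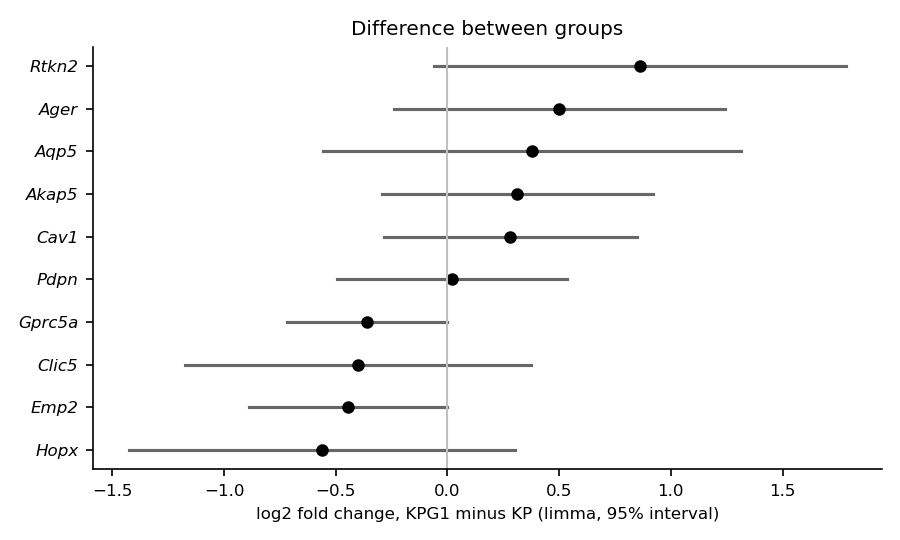
Log2 fold change of each marker in KPG1 against KP tumours (x axis) with its 95% interval from limma, ordered by size. The values run from -0.56 for Hopx to 0.86 for Rtkn2, and the intervals of Emp2 and Gprc5a end just under 0 while the other 8 include it.

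Libraries of 1 genotype differed from one another in marker level, widely for some markers. Gprc5a varied little, with an SD of 0.27 in KP and 0.25 in KPG1. A larger SD was found for 73.2% of all genes in KP and 53.8% in KPG1. The SD of log2 CPM was larger in KP than in KPG1 for 8 of 10 markers, as it was for 73.5% of all genes. The median SD of the markers was 0.53 in KP and 0.41 in KPG1, beside 0.39 and 0.26 over all genes tested. Aqp5 had the largest KP spread (SD 1.03, a 5.46-fold range, with 9.18% of all genes spread more widely), and in KPG1 its range was 2.01-fold. Without KP 1 the KP range of Aqp5 was 2.11-fold and its SD 0.49. Hopx (SD 0.93 in KP, 0.42 in KPG1), Clic5 (0.87 and 0.30) and Ager (0.75 and 0.42) showed the same order. Emp2 varied little in KPG1, with an SD of 0.11, smaller than that of 90.9% of genes, against 0.47 in KP, or 0.20 in KP without KP 5. Rtkn2 (0.46 in KP, 0.90 in KPG1) and Cav1 (0.42 and 0.50) had the larger SD in KPG1, and that of Rtkn2 was 0.65 without KPG1 3. Leaving out 1 library at a time gave 7 to 9 markers with the larger SD in KP. The difference in spread between the groups was not tested.

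**Figure D3:**
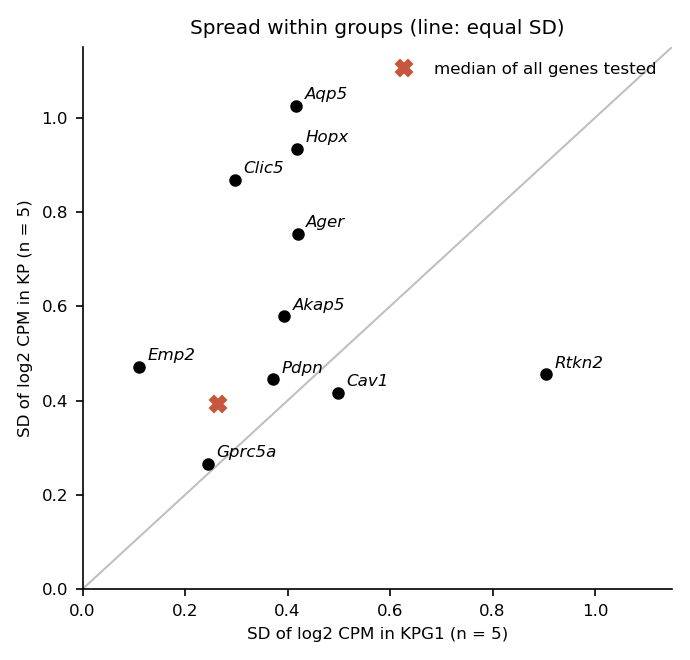
SD of log2 CPM for each marker in KPG1 (x axis) and in KP (y axis), 5 libraries each, with a cross at the median over all genes tested and a line of equal SD. The points of 8 markers lie above the line, and those of Cav1 and Rtkn2 below it.

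No library was high or low for all markers together. KP 1 had the lowest KP value for Ager, Hopx, Aqp5, Rtkn2, Clic5 and Gprc5a, and KP 5 the highest KP value for Ager, Hopx, Aqp5, Clic5 and Emp2 but the lowest for Cav1. In KPG1, library 1 was the highest for Ager, Pdpn, Cav1, Clic5 and Gprc5a. KPG1 3 was the highest for Hopx, Rtkn2 and Akap5 and the lowest for Clic5, Emp2 and Gprc5a. Ager supplied 18.2% of the markers' summed CPM in KP 1 and 43.1% in KPG1 1. Other values moved with these libraries: KP 1 had the lowest summed level of type 2 genes and the largest TMM factor (1.10), KP 5 the smallest TMM factor (0.880), and KPG1 1 the highest summed type 2, blood endothelial, lymphatic endothelial and fibroblast levels. A list of 20 further type 1 genes, read below, ran the other way in these KP libraries. Its summed level was highest of all libraries in KP 1 (6066 CPM) and lowest of the KP libraries in KP 5 (5130). The marker sums were 2613 in KP 1 and 5080 in KP 5. The regulator list read below had the same order (2504 in KP 1, 1393 in KP 5). In KPG1, library 1 had the highest sum of both type 1 lists. Their part in the marker levels was not tested.

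Per kilobase of annotated exon, the order of mean levels was Ager (552 CPM per kb), Gprc5a (265), Aqp5 (164), Emp2 (95.1), Pdpn (63.2), Hopx (53.2), Clic5 (43.1), Cav1 (30.3), Akap5 (23.4) and Rtkn2 (3.27). Each of Ager, Gprc5a, Aqp5 and Emp2 was above the next marker in 9 of 10 libraries. The mean difference of Aqp5 to Emp2, 0.70 log2 units, was nevertheless smaller than its SD of 0.80. Neighbours from Pdpn down to Akap5 likewise had mean differences smaller than their SD. Pdpn exceeded Hopx in 8 libraries, Hopx exceeded Clic5 in 8, Clic5 exceeded Cav1 in 5 and Cav1 exceeded Akap5 in 6. The mean difference of Hopx to Clic5 was 0.25 log2 units with an SD of 0.54. Akap5 was above Rtkn2 in all 10 libraries, by 3.00 log2 units (SD 0.67). The ratio rests on total exon length, not on the transcripts used in these tumours.

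Across the 10 libraries, the markers did not move as 1 block. Of 45 pairs, 32 had a positive and 13 a negative Pearson r, with a median of 0.19, and no pair passed an adjusted p of 0.05 (permutation test with 100000 resamples, Benjamini-Hochberg over 45 pairs; 4 pairs had an unadjusted p under 0.05). The RAGE receptor and the water channel were the closest pair, Ager and Aqp5 (r = 0.87, permutation p = 0.00184, adjusted p = 0.0828; Spearman coefficient = 0.81, permutation p = 0.00732, adjusted p = 0.329). Within KP r was 0.97 and within KPG1 0.46. It was 0.69 without KP 1 alone, 0.87 without KP 4 alone, and 0.44 without both, over the remaining 8 libraries. Leaving out KPG1 1 brought the adjusted p of this pair to 0.00781 by permutation, and leaving out KP 1 brought it to 0.434. Clic5 and Emp2 had r = 0.80 (permutation p = 0.0087, adjusted p = 0.196) and Spearman coefficient = 0.62 (permutation p = 0.0612, adjusted p = 0.540). Without KP 2 and KP 5, their r was 0.02. Pdpn and Clic5 had r = 0.67, and 0.77 without KP 2 and KPG1 1 (Spearman coefficient = 0.68, permutation p = 0.0327 for Pearson and 0.0344 for Spearman, adjusted p = 0.367 and 0.522). Hopx and Clic5 had r = 0.71 (permutation p = 0.0241, adjusted p = 0.361; Spearman coefficient = 0.56, permutation p = 0.0960, adjusted p = 0.540), and 0.35 without KP 4 and KP 5. The most negative pair, Cav1 and Emp2, had r = -0.56 (permutation p = 0.0949, adjusted p = 0.429; Spearman coefficient = -0.48, permutation p = 0.166, adjusted p = 0.650) and -0.0058 without KP 5 and KPG1 1.

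**Figure D4:**
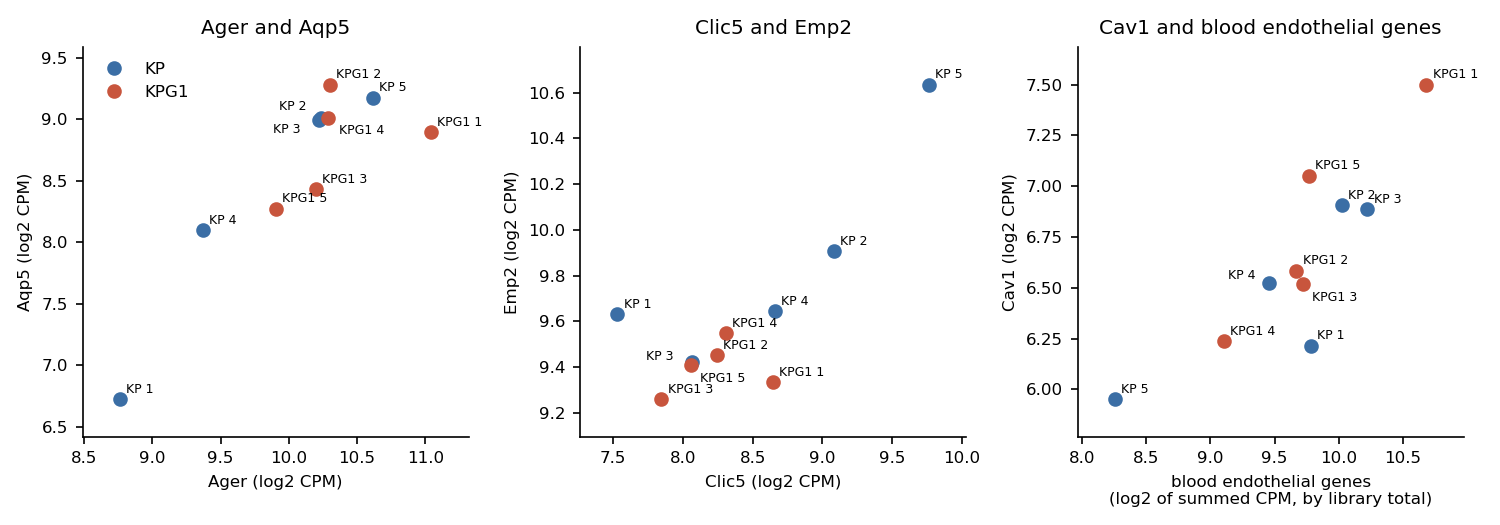
Levels in each of 10 libraries (points, named) of Aqp5 against Ager, Emp2 against Clic5, and Cav1 against the summed level of 12 blood endothelial genes, all in log2 units. KP 1 and KP 4 lie at the low end of the first relation, KP 5 at the high end of the second, and KP 5 and KPG1 1 mark the ends of the third.

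For each marker, the genes most like it by Pearson r over the 10 libraries were sought among 12900 tested genes with a mean of at least 1 log2 CPM. Ager was followed most closely by Skap2 (r = 0.96), an adaptor protein, then by Rilp and Pcdhga9, whose counts are uncertain because protocadherin gamma transcripts share exons. Aqp5 was followed by Icam1 (0.97), an adhesion molecule, Hs3st3b1 and Megf6. Cav1 was followed by 4930578C19Rik (0.98), Sparcl1, a matrix glycoprotein, and the chemokine Cxcl12. Emp2 was followed by Tmem41a (0.98), Gm13509 and 1700021K19Rik, and Clic5 by Adcy9 (0.96), an adenylyl cyclase, 9530026P05Rik and Vps8. Lower values were found for Gprc5a with Dok1 (0.91), Msn and RP24-84K14.11, Hopx with Chkb (0.91), Gm13910 and Fbxw2, and Akap5 with Dclre1c (0.90), Metap1d and Bms1. They were lowest for Rtkn2 with Fam73b (0.87), Trmt11 and Eif4ebp2, and Pdpn with Dcbld2 (0.86), Gbp9 and 9930104L06Rik. Between 99 (Pdpn) and 1958 (Cav1) genes outside the markers followed a marker more closely than any other marker did. These values describe the best of many genes over 10 libraries and carry no test.

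Gene lists around the type 1 cell state, also chosen with earlier results of these data known, were read in the same fit. Of 20 further type 1 genes, 8 had higher and 12 lower fitted values in KPG1, and none passed the adjusted threshold in limma. At an unadjusted p under 0.05 there were 2, both lower, while 6.31% of all genes were lower at that threshold. The median log2 fold change of the 20 was -0.07. EdgeR passed 0 of these genes and DESeq2 passed 2, Ahnak and Pxdc1. Over all 16216 genes, DESeq2 passed 125 higher and 423 lower, where limma passed 10 and 18. Ahnak, a large scaffold protein, had a log2 fold change of -0.94 (SE 0.19, adjusted p = 0.0862), Pxdc1 -1.03, the keratin Krt7 -0.50 and the growth factor gene Vegfa -0.35. The summed level of this list, in CPM by library total, ran from 5130 to 6066 in KP and from 3912 to 4754 in KPG1, without overlap, although the summed level of the 10 markers overlapped (2613 to 5080 in KP, 3108 to 4822 in KPG1). Such a sum weighs abundant genes most. Ahnak had a mean of 10.06 log2 CPM in KP and 9.11 in KPG1, and Krt7 9.87 and 9.37. The sum thus does not describe the 20 genes as a set. Taken singly, 2.81% of all genes had groups that did not overlap. Of 16 Hippo pathway and lineage regulators, 8 were higher and 8 lower, with a list median of 0.02, and 0 passed in limma and edgeR. At an unadjusted p under 0.05 in limma there were 5, all lower. Over all genes, 6.31% were lower at that threshold, and 1877 of 16216 passed it in either direction. Of these regulators, DESeq2 passed 2, Ankrd1 and Cyr61. The 5 included the YAP target genes Cyr61 (log2 fold change -1.91, SE 0.56, adjusted p = 0.236), Amotl2 (-0.77) and Ctgf (-0.85), and the Kruppel-like factor Klf5 (-0.45).

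The genes of the transitional state, a list chosen with earlier results of these data known, had lower values in KPG1 tumours. All 12 of its genes had lower fitted values in KPG1, while 52.7% of all genes were higher. At an unadjusted p under 0.05 in limma there were 11, beside 6.31% of all genes lower at that threshold. The adjusted threshold was passed by 2, beside 0.173% of all genes: Lgals3, encoding galectin-3 (log2 fold change -1.10, SE 0.16, adjusted p = 0.0304), and Areg, encoding the EGF receptor ligand amphiregulin (-0.84, SE 0.13, adjusted p = 0.0314). The summed level ran from 4552 to 7122 CPM in KP, lowest in KP 5, and from 3165 to 3945 in KPG1, without overlap. Leaving out any 1 library other than KP 5 took the adjusted p of both genes above 0.05 (0.0522 to 0.0850 for Lgals3 and 0.0522 to 0.105 for Areg), and without KP 5, 9 of the 12 genes passed. DESeq2 passed 10 of the 12, beside 125 higher and 423 lower of all 16216 genes, and edgeR passed the same pair as limma. With the sample number as a covariate, which largely coincides with genotype, neither Lgals3 nor Areg passed (adjusted p = 0.267 and 0.299 in limma). All 12 type 2 genes had higher fitted values in KPG1, 0 passed in limma, edgeR or DESeq2, and 5 had an unadjusted p under 0.05 in limma, as had 5.26% of all genes in that direction. The smallest p-values were those of Cxcl15 (1.16, SE 0.35, adjusted p = 0.243), Sftpc (1.22), Lpcat1 (0.67) and Abca3 (0.97), genes of lung chemokine, surfactant protein and surfactant lipid handling. Summed type 2 levels ran from 22072 to 66112 CPM in KP and from 57591 to 99290 in KPG1, with KP 1 and KP 4 lowest.

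**Figure D5:**
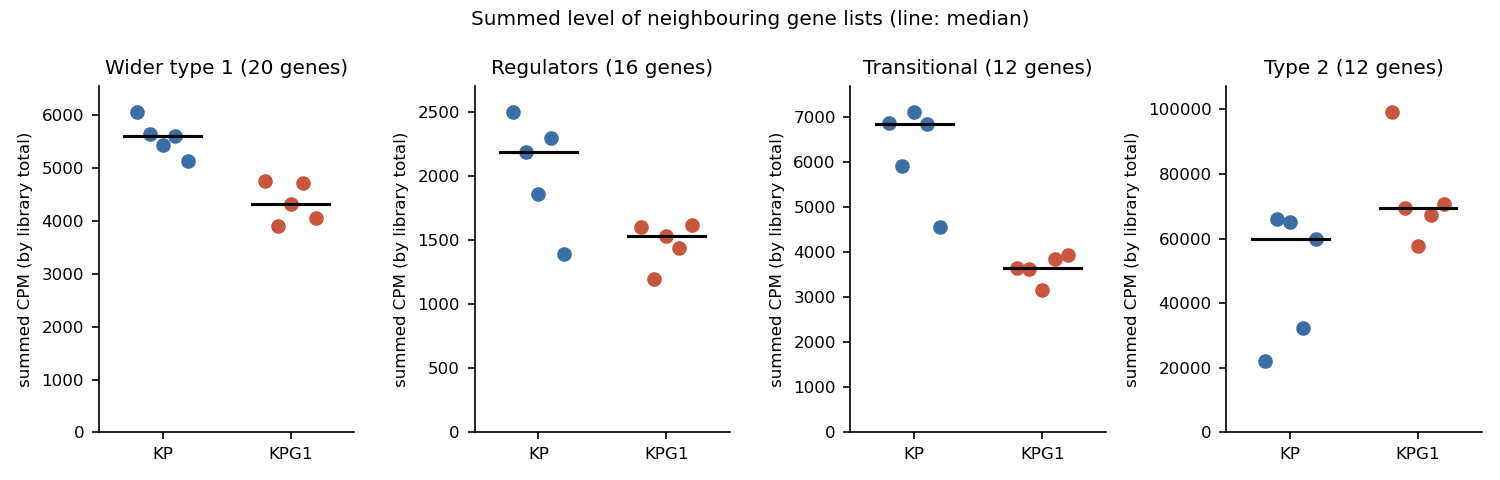
Summed CPM by library total (y axes, from 0) of the wider type 1, regulator, transitional and type 2 gene lists in 5 KP and 5 KPG1 libraries, with a line at each median. The groups do not overlap for the wider type 1 and transitional lists, and they overlap for the other 2. Each sum weighs abundant genes most.

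Other cell types of the lung share some of these markers. Of 100 relations between a marker and a summed gene list, none passed an adjusted p of 0.05. Cav1 followed the 12 blood endothelial genes (r = 0.86, permutation p = 0.00181, adjusted p = 0.0870; Spearman coefficient = 0.71, permutation p = 0.0284, adjusted p = 0.355; r = 0.65 without KP 5 and KPG1 1, 0.84 within KP and 0.93 within KPG1). Ager followed the 12 type 2 genes (r = 0.93, permutation p = 0.00129, adjusted p = 0.0870; Spearman coefficient = 0.62, permutation p = 0.0601, adjusted p = 0.601; r = 0.62 without KP 1 and KP 4, 0.96 within KP and 0.80 within KPG1). Emp2 ran against the fibroblast genes (r = -0.77, permutation p = 0.00261, adjusted p = 0.0870; Spearman coefficient = -0.77, permutation p = 0.0137, adjusted p = 0.342; r = -0.45 without KP 2 and KP 5). These relations had the smallest Pearson p. By Spearman, the smallest p was for Gprc5a with the mesothelial list (coefficient 0.87, permutation p = 0.00214, adjusted p = 0.214). Hopx with the club list came next (-0.83, permutation p = 0.00453, adjusted p = 0.227). Cav1 also had r = 0.81 with the lymphatic endothelial genes. Aqp5 had r = 0.84 with the type 2 genes, and 0.04 without KP 1 and KP 4.

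Of 12 blood endothelial genes, 11 had higher values in KPG1, 0 passed in limma and 1, Ednrb (log2 fold change 0.81), had an unadjusted p under 0.05. Their summed level ran from 306 to 1194 CPM in KP and from 551 to 1641 in KPG1, and the defining gene Pecam1 was at 60.6 CPM or above in every library. Of 5 tested lymphatic endothelial genes, which matter for Pdpn, 3 were higher and 2 lower with 0 at an unadjusted p under 0.05 (34.1 to 78.9 CPM summed in KP, 37.1 to 90.9 in KPG1), and Ccl21a was at 0 throughout. Of 9 tested fibroblast genes, 8 were higher, 0 passed in limma and 2 had an unadjusted p under 0.05, Dcn (0.75) and Postn (0.54), with 138 to 361 CPM summed in KP and 213 to 393 in KPG1. The 3 tested mesothelial genes were all lower, Msln by a log2 fold change of -0.63, with 0 at an unadjusted p under 0.05 (116 to 333 CPM in KP, 99.7 to 240 in KPG1), and Wt1 was at 0 in at least 1 library. Most of this sum was Msln (77.7 to 324 CPM in KP, 86.9 to 239 in KPG1). Upk3b reached at most 8.84 CPM and Wt1 at most 15 counts, so the sum says little about mesothelial cells. Of 6 club cell genes, 3 were higher, with Cyp2f2 (2.11) and Cckar (1.81) at an unadjusted p under 0.05 and 0 passing in limma (80.6 to 207 CPM in KP, 154 to 359 in KPG1). Levels of Cckar were low, with means of -0.75 log2 CPM in KP and 0.95 in KPG1. Of 7 tested leukocyte genes, 5 were lower, with S100a8 (-1.84) and Itgam (-1.04) at an unadjusted p under 0.05 and 0 passing (43.0 to 70.7 CPM in KP, 30.0 to 57.5 in KPG1). S100a8 was low too, with means of 1.32 log2 CPM in KP and -0.49 in KPG1. Over all genes, 52.7% were higher, and at an unadjusted p under 0.05 in limma 5.26% were higher and 6.31% lower. EdgeR passed 0 genes of these 6 lists. DESeq2, which passed 125 higher and 423 lower genes in all, passed 3 of these lists, Cyp2f2, S100a8 and Itgam. The part of these cells in the marker levels was not tested.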

How the data were processed

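Poly(A) RNA from the CD45-negative fraction of mouse lung tumours was sequenced with a stranded kit (TruSeq stranded mRNA, single-end). The deposited values are raw read counts per gene, made by the authors with trimming (cutadapt), HISAT2 alignment to mm10 and featureCounts, with tools named in the submitters' processing notes as bcl2fastq 2.17, cutadapt 1.4.2 and featureCounts 1.4.4. The joint table and the single-library tables agreed in 390170 of 390170 values. A table of log2 values deposited by the authors differed from the log2 of the counts plus 0.5 only by a constant per library, and was not used for tests. Alleles common to both groups are left unnamed.

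Counts were filtered with filterByExpr (edgeR 4.0.16), scaled by TMM, and tested with voom and limma 3.58.1 in R 4.3.3 by genotype only, which left 16216 genes, all 10 markers among them. P-values were adjusted by Benjamini-Hochberg over those genes, with a threshold of 0.05. Log2 CPM used a prior count of 2. Summed list levels used CPM by library total. Alternatives were edgeR, DESeq2 1.42.0, other scaling and filters, library quality weights, the replicate number as a block, the sample number as a covariate, and leaving out libraries. Leaving out KP 1 and KP 5 together was chosen after seeing the data. Scripts were tested on simulated data. Named genes were the 10 markers, Slc2a1, the 3 non-marker genes most like each marker, and, of each list, those past the threshold or else up to 4 with the smallest p. The markers and lists were chosen with earlier results of these data known. Coordinates come from GENCODE M21 and RefSeq on GRCm38, the build of mm10, and 37693 of 39017 gene IDs had a GENCODE M21 entry. Correlations and other statistics used Python 3.11.15 and scipy 1.17.1. Totals of 32427029 to 49534284 counts per library set the counting precision, and PCR copies were not removed by molecular identifiers.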

Additional observations from a re-analysis of the deposited data

Results flagged for a closer look

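In KPG1 1, Pdpn stood at 7.463 log2 CPM, far from the 6.58 to 6.72 of the other 4 KPG1 libraries (the gap was 0.835 of the group's range, above the critical value of 0.71). In KP 5, the summed level of the 6 club cell genes was 6.333 on the log2 scale of summed CPM, far below the 7.31 to 7.69 in KP 1 to KP 4, where the gap made up 0.715 of the range. Of 44 groups of 5 libraries examined, these 2 were singled out, and chance gives about 2.2.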

How the results depend on the processing

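The count of markers past the adjusted threshold was 0 under all 20 alternatives, and 0 to 3 had an unadjusted p under 0.05. Between 4 and 6 markers had a higher fitted value in KPG1, and the median log2 fold change of the markers ran from -0.09 (quality weights) to 0.26 (without KP 2). Rtkn2 was not tested at a mean CPM of at least 20. Pdpn was reversed with DESeq2 (-0.0010), at a mean CPM of at least 20 (-0.0039), with quality weights (-0.13) and with KP 1 and KP 5 both left out (-0.011), and ran from -0.16 to 0.16 without 1 library. Cav1 was reversed with quality weights (-0.057) and with both left out (-0.0057). Aqp5 ran from -0.039 to 0.55 without 1 library. With the sample number as covariate, Cav1 had 0.84, Emp2 -0.80, Clic5 -0.68 and Aqp5 0.09. Because sample number and genotype largely coincide, this fit can hardly separate them. The cause of these shifts was not tested. The Slc2a1 difference passed the threshold with DESeq2 (-1.04), quality weights (-1.13), without KP 5, and with both left out (-1.29), and ran from -1.14 to -0.92 without 1 library. Under the other alternatives it did not pass, and with the sample number as covariate it was -0.88 (adjusted p = 0.371 in limma). Marker pairs past the threshold numbered 0 to 1 without 1 library, and 0 on deviations from group means. Prior counts of 0.5 and 5 kept the median SD of the markers at 0.53 in KP and 0.41 in KPG1.

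Same-numbered libraries correlated by -0.16 to 0.08 in their deviations from group means. These values gave no sign that the numbers pair the samples, but they cannot settle how the samples were collected. The replicate block moved genes past the threshold from 10 higher and 18 lower to 4 and 1, and left 0 markers past it. With this block Slc2a1 had -1.01 (adjusted p = 0.176 in limma). The block also ended the calls of Lgals3 and Areg (adjusted p = 0.154 for both). The sample number as covariate gave 4 and 4, DESeq2 125 and 423, and quality weights 51 and 177. A mean CPM of at least 20 gave 5 and 31, no filter 31 lower, edgeR 29 lower, and both KP 1 and KP 5 left out 44 lower. Without 1 library, 3 to 71 were higher and 1 to 223 lower, the most without KP 5.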
